A study of Homo sapiens with 6 samples.

Results

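The genes described here make, take up, move and export cholesterol. They are 34 genes, chosen by symbol from a table of 20332 genes, and all 34 were in it. They comprise 19 enzymes that build cholesterol and isoprenoids, 5 regulators and carriers of sterol sensing, 4 genes of lipoprotein receptor turnover and lysosomal egress, and 6 genes of liver X receptor (LXR) signalling, efflux, oxysterol synthesis and esterification. The cells were LX-2, an immortalised human line of hepatic stellate cells, the pericytes of the liver sinusoid that produce scar matrix when activated. All 6 libraries came from cells given TGF-β1, the cytokine that drives this activation. DMSO, the solvent, accompanied it in 3 libraries, and 10 µM of compound 11 accompanied it in 3, each for 48 h. The compound is known from the labels by its number, and the series title places it in a study of anti-fibrotic agents and PI3K-AKT signalling. Resting cells were not analysed here, and the cells are a single line, so the comparison is of compound 11 against its solvent under TGF-β1.

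Animal cells build cholesterol from acetyl-CoA through mevalonate, isoprenoid diphosphates, squalene and a series of sterols. The transcription factor SREBP2 switches these genes on when membranes of the endoplasmic reticulum run low in sterol: its escort SCAP carries it to the Golgi for cleavage, and the INSIG proteins hold the complex back when sterol is plentiful. Cholesterol taken up in lipoproteins is freed in lysosomes by acid lipase and handed out through NPC2 and NPC1. Oxysterols activate the LXRs, which induce the exporters ABCA1 and ABCG1 and the ligase MYLIP. In mice, stellate cells that carry more free cholesterol are known to respond more strongly to TGF-β.

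Values are in TPM, read abundance scaled by transcript length and to a total of 1000000 in each library, so levels can be set side by side between genes. Sequencing depth is not kept on this scale and is unknown. Between 14699 and 14830 genes per library were above 0. Principal component 1, with 81.1% of the variance, set the groups apart. Nothing in the labels says that replicates came from separate cultures, so p-values measure a spread between libraries that may be technical. Of 10 stellate and myofibroblast markers, 8 were at 1 TPM or more in every library, and DES was listed at 0 throughout. Summed over these 10 markers the level was 10100 to 10300 TPM in DMSO and 7880 to 8100 TPM with compound 11. VIM averaged 6400 TPM in DMSO and 7512 TPM with compound 11 and was the only marker of the 10 that rose. Apart from DES, all the others fell. Among them COL1A1 went from 1132 to 102 TPM, ACTA2 from 176 to 6.28 TPM, TAGLN from 713 to 85.6 TPM and SPARC from 1362 to 273 TPM. The hepatocyte markers TTR and APOA1 were listed at 0 in all libraries and ALB was at or below 0.035 TPM on average. Summed over 5 hepatocyte markers the level was 3.32 to 4.22 TPM in DMSO and 18.7 to 27.2 TPM with compound 11, nearly all of it SERPINA1. Summed macrophage markers went from 82.5 to 85.9 TPM in DMSO to 132 to 149 TPM with compound 11, nearly all of it CD68, while PTPRC stayed below 1 TPM on average. Endothelial markers summed to 1.57 to 2.25 TPM in DMSO and 7.54 to 8.21 TPM with compound 11. Nearly all of that rise was KDR (1.11 to 4.57 TPM) and PECAM1 (0.518 to 2.77 TPM), while CDH5 averaged 0.0787 and 0.052 TPM. Cholangiocyte markers summed to 26.1 to 31.7 TPM in DMSO and 38.3 to 38.9 TPM with compound 11. Among them SOX9 rose from 23.6 to 34.6 TPM and KRT7 fell from 3.92 to 2.45 TPM. The groups overlapped for KRT19 and EPCAM. The part of these shifts in the results was not tested.

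With compound 11, 15 of 19 enzymes of cholesterol and isoprenoid synthesis fell, MVK, ACAT2, MVD and HMGCS1 of the mevalonate arm the most. NPC1, the lysosomal cholesterol exporter, rose 3.56-fold and the plasma membrane exporter ABCA1 fell 3.09-fold. Of the 34 genes, 32 passed the filter of 1 TPM in at least 3 libraries. In limma with Benjamini-Hochberg adjustment over all 12067 genes tested and a threshold of 0.05, 20 of these 32 were lower and 5 were higher, and 7 did not pass. Across all genes tested, 24.3% were lower and 25.3% were higher. The ranges of the groups did not overlap for 25 of the 32, against 57.8% of all genes tested. The median log2 fold change of the 32 was -0.29, against -0.001 for all genes tested. In 3 of the 32, NPC1, ABCA1 and MVK, the difference reached 2-fold on the log2(TPM + 1) scale. In bulk RNA such as this, fewer cells expressing a gene and less RNA per cell cannot be told apart.

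**Figure D1:**
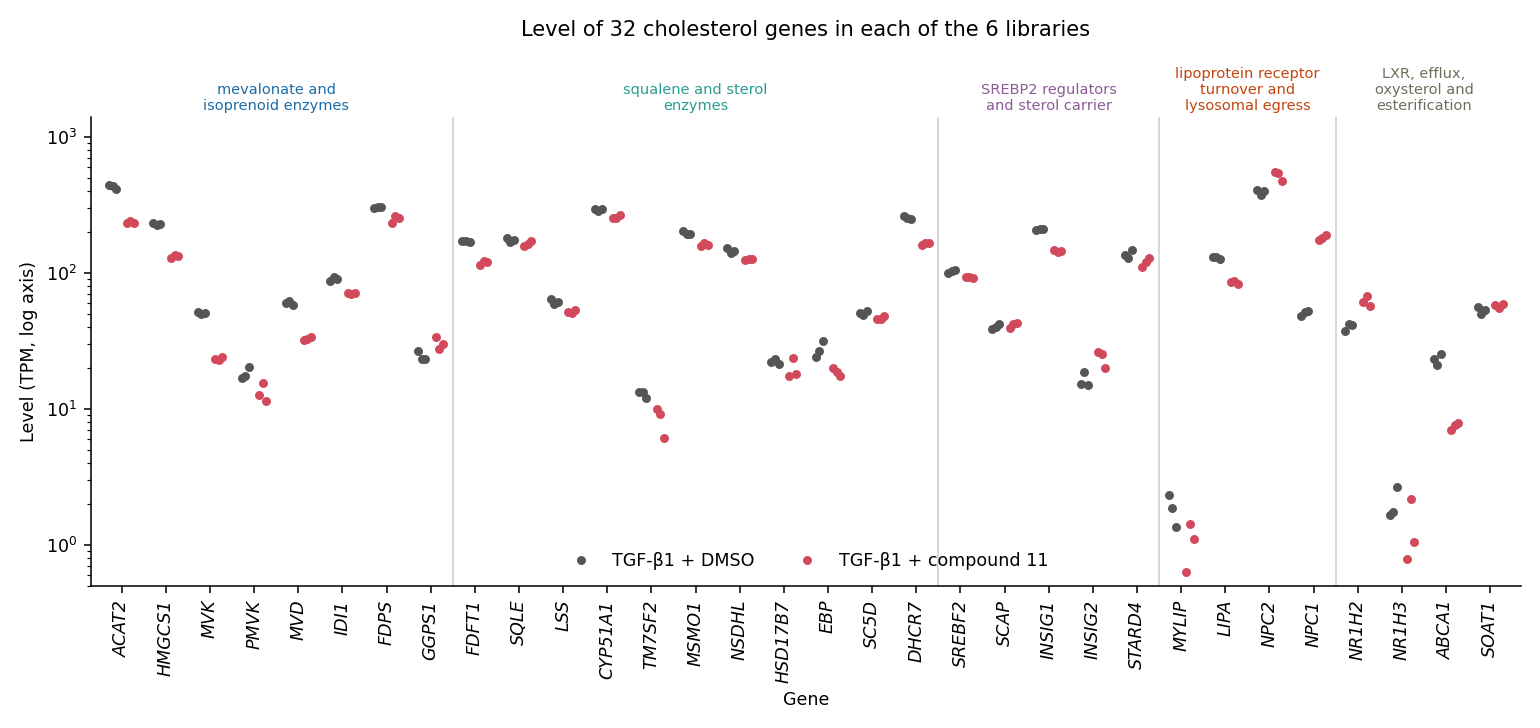
Level of 32 cholesterol genes in TPM on a log axis, with 3 points per group: grey, TGF-β1 with DMSO, and red, TGF-β1 with compound 11. Genes run in pathway order within 5 role groups; NPC1 and ABCA1 show the widest separation, in opposite directions.

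The mevalonate arm, from acetyl-CoA to isoprenoid diphosphates, held the strongest falls among the synthesis enzymes. Of its 8 enzymes, 7 were lower and 1 was higher, against 24.3% lower and 25.3% higher among all genes tested. The median log2 fold change of the 8 was -0.61. ACAT2, the cytosolic thiolase that joins acetyl-CoA units, was the most abundant, at 445, 440 and 420 TPM in DMSO and 233, 244 and 235 TPM with compound 11. The log2 fold change was -0.87 ± 0.04 (SE; limma adjusted p = 9.56e-08). HMGCS1, which makes HMG-CoA, was at 233, 225 and 231 TPM in DMSO and at 129, 137 and 135 TPM with compound 11. Both genes were separated by wide gaps between the groups, and HMGCS1 fell by 41.9%. MVK, mevalonate kinase, was at 51.6, 50.2 and 51.1 TPM in DMSO and 23.2, 23.0 and 24.3 TPM with compound 11. MVK had the largest fall of the 19 enzymes (log2 fold change -1.08 ± 0.06 SE, limma adjusted p = 4.07e-07), and within each group its libraries lay less than 2 TPM apart. MVD, the decarboxylase that forms isopentenyl diphosphate, was at 60.4, 62.5 and 58.4 TPM in DMSO and 32.1, 32.8 and 33.9 TPM with compound 11. PMVK, the kinase between MVK and MVD, was lower in level and more scattered, at 17.1, 17.5 and 20.4 TPM in DMSO and 12.8, 15.6 and 11.5 TPM with compound 11. Its log2 fold change was -0.44, with a 95% confidence interval of -0.71 to -0.18 (limma adjusted p = 0.0121), so its fall was smaller than that of its neighbours MVK and MVD, whose intervals ended at -0.96 and -0.73.

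Later in this arm the falls were smaller and the last member rose. IDI1, the isomerase of isopentenyl diphosphate, was at 88.4, 93.9 and 91.0 TPM in DMSO and 71.8, 70.5 and 71.7 TPM with compound 11. FDPS, which makes farnesyl diphosphate, was at 301, 308 and 308 TPM in DMSO and 234, 265 and 253 TPM with compound 11. The groups did not overlap for either gene, and IDI1 fell by 21.7% and FDPS fell by 18.0%. GGPS1 draws farnesyl diphosphate away from sterols to make geranylgeranyl diphosphate, a lipid that anchors proteins to membranes. It was at 26.8, 23.3 and 23.4 TPM in DMSO and 33.8, 27.7 and 30.4 TPM with compound 11, a rise of 1.25-fold (log2 fold change 0.31 ± 0.09 SE, limma adjusted p = 0.0178). The GGPS1 groups lay less than 1 TPM apart, and its call was lost without DMSO replicate 2 (adjusted p = 0.0595), DMSO replicate 3 (0.0574) or compound 11 replicate 1 (0.0693).

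Farnesyl diphosphate enters the sterol branch through squalene. All 11 listed enzymes of this branch had a negative log2 fold change, as did 6059 of the 12067 genes tested. Of the 11, 8 passed the threshold as lower, against 24.3% of all genes tested, and 3 did not pass. Their median log2 fold change was -0.23. FDFT1, squalene synthase and the first committed step, was at 173, 172 and 170 TPM in DMSO and 115, 123 and 122 TPM with compound 11. DHCR7, the reductase that completes cholesterol, was at 263, 255 and 252 TPM in DMSO and 160, 167 and 167 TPM with compound 11. These enzymes, at the entry and the exit of the branch, had log2 fold changes of -0.51 ± 0.04 and -0.64 ± 0.04 (SE), with limma adjusted p of 7.19e-06 and 8.21e-07. SQLE, squalene epoxidase, stands directly after FDFT1 and was at 182, 170 and 176 TPM in DMSO and 159, 165 and 174 TPM with compound 11. The SQLE groups overlapped, and its log2 fold change of -0.08 had a 95% confidence interval of -0.19 to 0.02 that lay wholly above that of FDFT1, -0.60 to -0.42.

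The enzymes between SQLE and DHCR7 differed in the size of their change. LSS, which closes the ring to lanosterol, averaged 61.7 ± 2.62 TPM in DMSO and 52.3 ± 1.60 TPM with compound 11 (SD, n = 3 in each). CYP51A1, the lanosterol demethylase, fell from 294 ± 6.39 to 259 ± 7.44 TPM. MSMO1 and NSDHL, which strip methyl groups from the sterol nucleus, went from 198 ± 6.25 to 162 ± 3.69 TPM and from 146 ± 6.40 to 127 ± 2.18 TPM. None of these 4 overlapped between the groups, which was also so for 57.8% of all genes tested. CYP51A1 fell by 11.9%, NSDHL fell by 13.1%, LSS fell by 15.2% and MSMO1 fell by 18.0%. HSD17B7, the ketoreductase of the same demethylation, did not pass: it was at 22.2, 23.3 and 21.4 TPM in DMSO and 17.6, 23.8 and 18.1 TPM with compound 11. A single library, compound 11 replicate 2, held HSD17B7 at the DMSO level. Without that library the log2 fold change was -0.30 (limma adjusted p = 0.0157). This omission takes out the value that went against a fall, so it cannot show one. HSD17B7 passed in only 1 of 15 alternative settings. TM7SF2, a sterol reductase of low abundance, was at 13.4, 13.4 and 12.2 TPM in DMSO and 9.98, 9.23 and 6.17 TPM with compound 11. EBP, the sterol isomerase, was at 24.2, 26.7 and 31.7 TPM in DMSO and 20.1, 18.8 and 17.5 TPM with compound 11. TM7SF2 and EBP had wider spreads than the abundant enzymes, with log2 fold changes of -0.58 ± 0.15 and -0.52 ± 0.10 (SE; limma adjusted p = 0.0107 and 0.00228). TM7SF2 fell by 34.7% and EBP fell by 31.8%, more than the 4 abundant enzymes above. SC5D, the desaturase before DHCR7, was at 51.4, 49.5 and 52.8 TPM in DMSO and 45.7, 46.5 and 48.4 TPM with compound 11; its ranges did not overlap, yet it did not pass (log2 fold change -0.13, limma adjusted p = 0.0753).

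**Figure D2:**
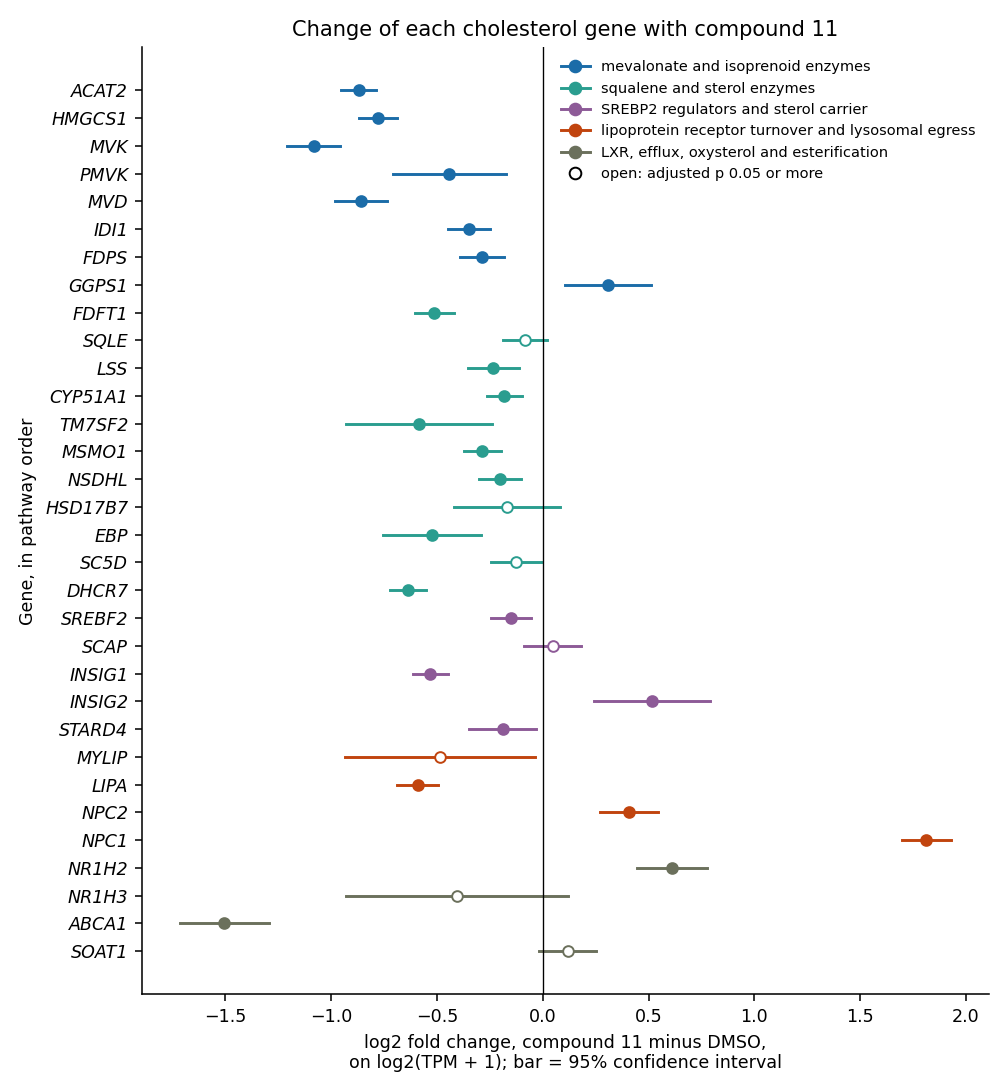
log2 fold change of each gene, compound 11 minus DMSO, with its 95% confidence interval from limma (n = 3 per group) and role by colour; open circles did not pass the threshold. The enzyme series runs from -1.08 at MVK to 0.31 at GGPS1, and NPC1 and ABCA1 lie farthest from 0.

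Summed over the 19 enzymes, the level was 2672, 2610 and 2620 TPM in DMSO and 1888, 1970 and 1959 TPM with compound 11. The sum thus dropped by 26.4%, from 0.263% to 0.194% of the library total. The mevalonate and isoprenoid enzymes dropped by 34.7% as a sum, from 1216 ± 10.8 to 793.8 ± 23.0 TPM (SD, n = 3 per group), and the squalene and sterol enzymes dropped by 19.2%, from 1418 ± 30.0 to 1145 ± 24.2 TPM. These sums were not tested.

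**Figure D3:**
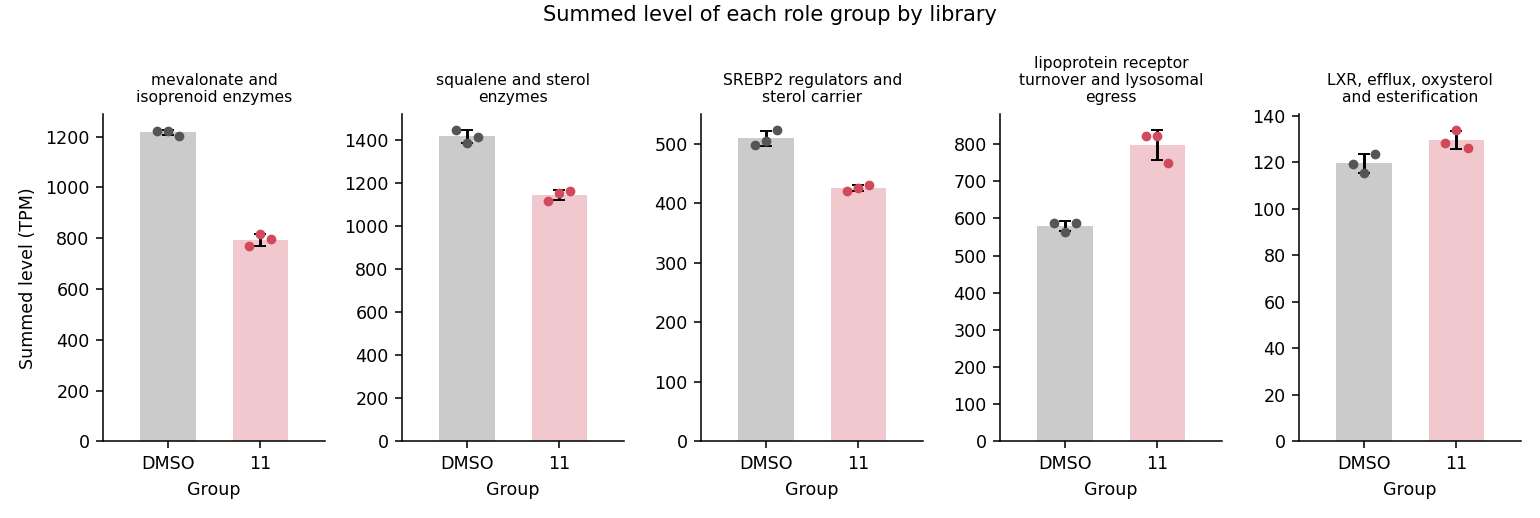
Summed TPM of each of the 5 role groups; bars are means, error bars SD and points the 3 libraries of each group. The enzyme and regulator sums are lower with compound 11, and the sum for receptor turnover and lysosomal egress is higher. That higher sum comes from NPC1 and NPC2. LIPA and the receptor turnover gene MYLIP had lower means, MYLIP without passing the threshold.

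Several of these genes share sequence with others, and whether the authors' counting used strand is not given. FDPS has 8 pseudogenes named after it in GENCODE v29, CYP51A1 has 3 and HSD17B7 has 2, so their levels are uncertain. CYP51A1 also shares 2844 of its 3584 exonic bases with AC000120.2 on the same strand. That entry was listed at no more than 0.279 TPM in any library. The exons of ACAT2 overlap those of TCP1, a chaperonin subunit on the opposite strand, over 397 bases, and TCP1 also fell, from 426 to 334 TPM (log2 fold change -0.35 ± 0.04 SE). The largest overlaps of ACAT2 were with SOD2-OT1, over 1458 bases, and a SOD2 entry, over 1141 bases, both on the opposite strand. Neither identifier was among the 20332 genes, so their levels are unknown. HMGCS1, FDPS and IDI1 overlap antisense entries that likewise had no values, over 703, 693 and 643 bases. MVK overlaps MMAB, a cobalamin enzyme transcribed the opposite way, over 306 bases, and MMAB fell from 51.2 to 33.9 TPM (log2 fold change -0.58 ± 0.07 SE). GGPS1 shares 1422 exonic bases with ENSG00000285053 on the same strand, an entry of low level that GENCODE names TBCE like a second, more abundant gene, and which averaged 5.14 and 4.10 TPM in the same order and did not pass.

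In the sterol-sensing machinery, INSIG1 fell and INSIG2 rose. INSIG1, itself a target of SREBP2, was at 208, 213 and 211 TPM in DMSO and 149, 143 and 145 TPM with compound 11. INSIG2, which is not induced by SREBP2, was at 15.4, 18.9 and 15.1 TPM in DMSO and 26.5, 25.5 and 20.1 TPM with compound 11. The log2 fold changes were -0.53 ± 0.04 and 0.52 ± 0.12 (SE; limma adjusted p = 2.38e-06 and 0.00606), and in neither gene did the groups overlap. The ratio of INSIG1 to INSIG2 TPM within a library was 13.5, 11.3 and 13.9 in DMSO and 5.62, 5.59 and 7.19 with compound 11. SREBF2, which encodes SREBP2, was at 101, 103 and 106 TPM in DMSO and 93.9, 93.4 and 91.8 TPM with compound 11. It fell by 9.99%, with a narrow spread in both groups (log2 fold change -0.15 ± 0.04 SE, limma adjusted p = 0.0136); without DMSO replicate 3 the adjusted p was 0.0505. SCAP, the escort of SREBP2, was at 38.9, 40.2 and 42.1 TPM in DMSO and 39.9, 42.6 and 42.8 TPM with compound 11. Its groups overlapped, and its log2 fold change of 0.05 had a 95% confidence interval of -0.09 to 0.18. STARD4, a soluble sterol carrier, was at 135, 129 and 149 TPM in DMSO and 111, 121 and 131 TPM with compound 11. Its ranges overlapped, its adjusted p was 0.0485, and the call was lost in 10 of 15 alternative settings.

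The stretches before the annotated starts of 6 of these genes are shown as examples. HMGCS1, MVD, NSDHL, SREBF2 and INSIG1 fell by unlike amounts (log2 fold changes -0.78, -0.86, -0.20, -0.15 and -0.53), and INSIG2 rose (0.52). The stretches are RefSeq promoter sequences on GRCh38.p14, read along the gene, cut to the part that lies in no exon of a protein-coding gene in GENCODE v29. Capitals mark CCAAT on either strand (the box bound by NF-Y, a partner of SREBP2) and TCACNCCAC on either strand (a sterol regulatory element motif).
HMGCS1, chr5:43313513-43313662 (- strand): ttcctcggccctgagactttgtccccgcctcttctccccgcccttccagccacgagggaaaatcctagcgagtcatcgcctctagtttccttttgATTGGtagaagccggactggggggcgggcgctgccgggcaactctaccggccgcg
MVD, chr16:88663162-88663341 (- strand): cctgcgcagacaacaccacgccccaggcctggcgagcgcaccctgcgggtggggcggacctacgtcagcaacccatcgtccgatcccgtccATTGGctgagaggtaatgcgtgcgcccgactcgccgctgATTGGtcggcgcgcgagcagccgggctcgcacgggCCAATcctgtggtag
NSDHL, chrX:152830813-152830966 (+ strand): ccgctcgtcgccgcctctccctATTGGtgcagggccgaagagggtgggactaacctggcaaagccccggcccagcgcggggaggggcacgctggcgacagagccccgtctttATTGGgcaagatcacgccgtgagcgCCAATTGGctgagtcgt
SREBF2, chr22:41832855-41833078 (+ strand): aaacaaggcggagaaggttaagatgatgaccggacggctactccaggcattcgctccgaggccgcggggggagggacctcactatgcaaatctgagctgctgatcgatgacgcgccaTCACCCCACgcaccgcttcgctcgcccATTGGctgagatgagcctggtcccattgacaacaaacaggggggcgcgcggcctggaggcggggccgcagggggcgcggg
INSIG1, chr7:155297628-155297775 (+ strand): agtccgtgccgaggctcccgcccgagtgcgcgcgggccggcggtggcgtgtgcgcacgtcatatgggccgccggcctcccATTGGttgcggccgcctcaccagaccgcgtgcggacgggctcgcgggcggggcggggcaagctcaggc
INSIG2, chr2:118088221-118088451 (+ strand): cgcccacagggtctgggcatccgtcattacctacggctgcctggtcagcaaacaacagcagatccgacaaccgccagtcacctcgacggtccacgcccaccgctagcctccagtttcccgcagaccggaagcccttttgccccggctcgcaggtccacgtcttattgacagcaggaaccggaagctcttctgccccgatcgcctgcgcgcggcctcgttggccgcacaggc

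SREBF2 was the only printed gene with the sterol element, followed downstream by a reverse CCAAT box. In NSDHL the stretch held 4 CCAAT boxes, of which a pair overlap on opposite strands, and in MVD it held 3. INSIG1 held 1 and INSIG2 none. RefSeq windows of 300 bases, from 250 before to 50 after a start, were matched for 30 of the 34 genes, with 44 windows among them because some genes have several starts. CCAAT was present in at least 1 window of 14 of 16 synthesis enzymes and 8 of 14 other genes, against 42.5% of the 15392 genes of the table with a window. Its presence did not track direction. PMVK, CYP51A1 and ABCA1 fell without CCAAT in their windows. NPC2 and GGPS1 rose with it, and INSIG2, NPC1 and NR1H2 rose without it. TCACNCCAC was present in 1 of the 30, SREBF2, against 1.52% of the genes of the table, and CACGTG, the E-box, in 5 of the 30 against 10.9%. A match describes these letters only, and its absence says nothing about binding.

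Genes that deliver cholesterol out of the lysosome did not move with the synthesis enzymes. NPC1, the membrane protein that passes cholesterol out of the lysosome, was at 48.8, 51.9 and 53.0 TPM in DMSO and 175, 183 and 190 TPM with compound 11. This was the largest change of the 32 genes (log2 fold change 1.81 ± 0.05 SE, limma adjusted p = 6.95e-09), and the lowest treated library stood at over 3 times the highest DMSO library. The gene spans 23506184 to 23586898 of chromosome 18, on the minus strand (GRCh38, GENCODE v29). Its exons overlap those of RMC1, on the opposite strand, over 604 bases; RMC1 rose from 45.6 to 69.0 TPM (log2 fold change 0.59 ± 0.07 SE), a smaller rise than that of NPC1. NPC2, the soluble lysosomal protein that hands cholesterol to NPC1, was at 406, 378 and 406 TPM in DMSO and 559, 549 and 475 TPM with compound 11. It rose 1.33-fold (log2 fold change 0.41 ± 0.06 SE, limma adjusted p = 0.000457), with no overlap between groups. The ratio of NPC2 to NPC1 was 8.32, 7.29 and 7.65 in DMSO and 3.20, 3.01 and 2.50 with compound 11. LIPA, the acid lipase that frees cholesterol from lipoprotein esters before NPC2 and NPC1 act, was at 132, 132 and 127 TPM in DMSO and 86.6, 88.3 and 83.5 TPM with compound 11. It fell by 33.9% (log2 fold change -0.59 ± 0.04 SE, limma adjusted p = 3.64e-06), so the lipase fell where both transfer proteins rose. LIPA overlaps IFIT2 on the opposite strand over 65 exonic bases, and IFIT2 rose (log2 fold change 1.42 ± 0.11 SE). MYLIP, the ubiquitin ligase that sends lipoprotein receptors for degradation, was near the floor, at 2.36, 1.89 and 1.36 TPM in DMSO and 0.636, 1.43 and 1.11 TPM with compound 11. Its groups overlapped and it did not pass (log2 fold change -0.48, limma adjusted p = 0.0703).

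Among genes of LXR signalling and efflux, ABCA1 fell while the receptor NR1H2 rose. ABCA1, which loads cholesterol onto apolipoprotein A-I, was at 23.2, 21.3 and 25.3 TPM in DMSO and 7.09, 7.70 and 7.87 TPM with compound 11. It fell by 67.6% (log2 fold change -1.50 ± 0.09 SE, limma adjusted p = 1.23e-06), the steepest fall of the 32 genes. The ABCA1 gene spans 104781002 to 104928237 of chromosome 9, on the minus strand of the same annotation. ABCG1, the other LXR-induced exporter, was below the filter, at no more than 0.106 TPM in any library. NR1H2, encoding the widely expressed LXRβ, was at 37.7, 42.3 and 41.5 TPM in DMSO and 61.7, 68.1 and 57.4 TPM with compound 11. It rose 1.54-fold (log2 fold change 0.61 ± 0.07 SE, limma adjusted p = 0.00012) with no overlap between groups. NR1H3, encoding LXRα, was far lower, at 1.68, 1.76 and 2.68 TPM in DMSO and 0.788, 2.20 and 1.06 TPM with compound 11. Its groups overlapped and it did not pass (log2 fold change -0.40, limma adjusted p = 0.181). NR1H3 overlaps the more abundant ACP2 on the opposite strand over 189 exonic bases, and ACP2 did not pass (log2 fold change -0.105 ± 0.0755 SE). CH25H, which makes the oxysterol 25-hydroxycholesterol, was listed at 0 in 5 libraries and at 0.083 TPM in compound 11 replicate 1. SOAT1, which esterifies cholesterol for storage, was at 56.3, 50.1 and 54.1 TPM in DMSO and 58.5, 55.9 and 59.9 TPM with compound 11. The SOAT1 groups overlapped by a narrow margin, and its log2 fold change of 0.12 had a 95% confidence interval of -0.02 to 0.25. The ratio of SOAT1 to ABCA1 within a library was 2.42, 2.35 and 2.14 in DMSO and 8.26, 7.26 and 7.60 with compound 11.

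**Figure D4:**
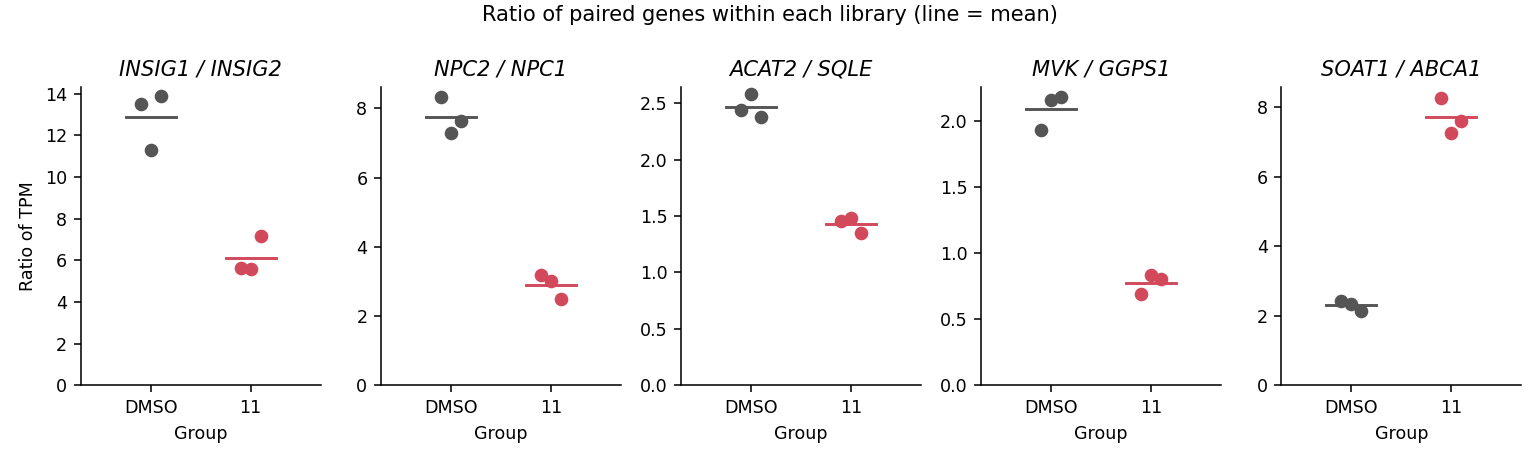
Ratios of TPM between 5 pairs of genes within each library, with the mean as a line and axes from 0. The ratios follow from the levels of the single genes and were not tested. INSIG1 to INSIG2 went from a mean of 12.9 to 6.13, NPC2 to NPC1 from 7.76 to 2.90, ACAT2 to SQLE from 2.47 to 1.43, MVK to GGPS1 from 2.09 to 0.773 and SOAT1 to ABCA1 from 2.30 to 7.71.

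Beyond these genes, 50 further genes of sterol and isoprenoid handling were listed, of which 47 passed the filter. Of the 47, 9 were lower, 15 were higher and 23 did not pass, with a median log2 fold change of 0.05. These counts, and those of the 5 lists within them, are set against 24.3% lower and 25.3% higher among all genes tested; the 47 together lie near those shares, the lists are small, and no difference from the shares was tested. In the isoprenoid branch, 5 of 14 rose and 3 fell: FNTA, a subunit shared by protein prenyltransferases, rose from 49.8 ± 2.05 to 68.5 ± 4.53 TPM (SD, n = 3 per group). PDSS2, for the ubiquinone side chain, rose from 13.0 ± 0.635 to 19.96 ± 1.37 TPM, and DHDDS, for dolichol, fell from 60.0 ± 0.802 to 47.7 ± 4.26 TPM. Among 10 genes of SREBP processing and sterol-regulated degradation, 7 did not pass, both SREBP proteases MBTPS1 and MBTPS2 among them (log2 fold changes 0.07 and 0.01). SYVN1 and RNF139, ubiquitin ligases of the endoplasmic reticulum, rose (log2 fold changes 0.59 and 0.23), and TMEM97, a sterol-regulated membrane protein that binds NPC1, fell from 128 ± 8.25 to 101 ± 13.0 TPM.

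Of 11 intracellular sterol carriers, 4 rose, 2 fell and 5 did not pass. STARD3, which moves cholesterol at late endosomes, rose from 78.8 ± 5.31 to 128 ± 5.80 TPM, GRAMD1A, which brings plasma membrane cholesterol to the endoplasmic reticulum, from 29.6 ± 2.05 to 42.5 ± 1.31 TPM, and SCARB2, a lysosomal membrane protein, from 118 ± 4.48 to 177 ± 8.36 TPM. Of 6 other lipoprotein receptors and adaptors, 2 fell and 2 rose. LRP1, a large endocytic receptor, fell from 34.8 ± 0.963 to 24.3 ± 1.48 TPM and SCARB1, the receptor for high-density lipoprotein, from 40.0 ± 3.09 to 30.1 ± 0.831 TPM, whereas LRPAP1, the chaperone of such receptors, rose from 73.5 ± 4.87 to 98.1 ± 3.21 TPM. Of 6 tested LXR partners and sterol-modifying enzymes, LPCAT3, a phospholipid-remodelling enzyme that LXRs induce, fell from 47.0 ± 0.963 to 31.1 ± 0.756 TPM. The LXR partners RXRA and RXRB rose (log2 fold changes 0.43 and 0.24), and the other 3 did not pass.

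**Figure D5:**
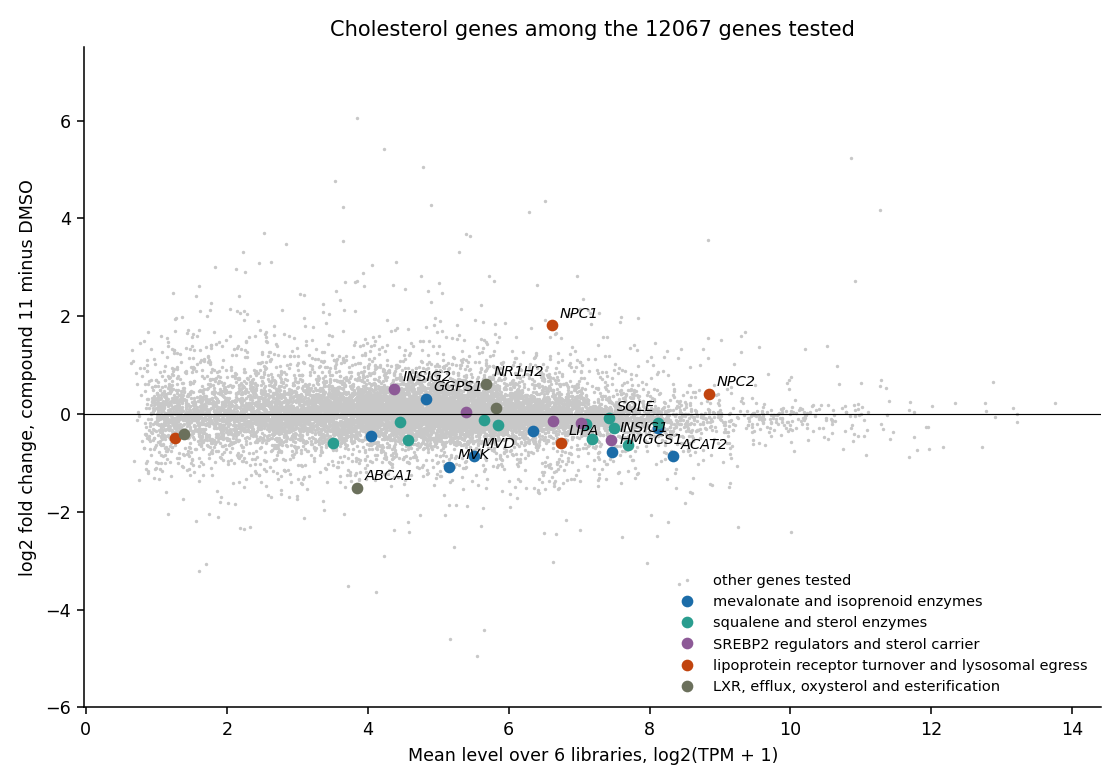
log2 fold change, compound 11 minus DMSO, against mean level over the 6 libraries on the log2(TPM + 1) scale for the 12067 genes tested (grey), with the cholesterol genes coloured by role. Most enzymes sit below 0 at high levels, NPC1 lies at 1.81 and ABCA1 at -1.50.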

How the data were processed

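TRIzol extracts of total RNA went into Illumina TruSeq RNA libraries, per the labels' protocols. The submitters' processing notes name Bowtie 0.12.2, GRCh38.p12 and the mouse build mm8 without a role; for the counting tool, annotation and strand setting, nothing was given in the sources used. The deposited headers say FPKM, but every deposited column sums to 1000000, so the values are TPM and hold no depth. Sample titles gave groups and replicates.

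On log2(TPM + 1), limma 3.58.1 (R 4.3.3) was fitted by group, with a mean-variance trend, to genes reaching 1 TPM in 3 or more libraries; tests were two-sided, adjusted by Benjamini-Hochberg over all of them, with a threshold of 0.05. The pipeline was tested on simulated data. FPKM had been assumed in the design; the test was kept. Fold changes without log2 are ratios of mean TPM; log2 values understate changes of low genes. The members, lists and motifs were chosen with earlier results of these data known. All 34 members are named, with up to 3 further genes per list by adjusted p; MBTPS1 and MBTPS2 were added after their values were seen. GENCODE v29 held 98.9% of the identifiers. Alternatives were pseudocounts of 0.1 and 0.01, no filter, a mean of 5 TPM or more, upper-quartile and quantile scaling, removal of the 20 most abundant genes, no variance trend, a replicate block and omission of single libraries.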

Additional observations from a re-analysis of the deposited data

How the results depend on the processing

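The count of lower cholesterol genes ranged from 19 to 22 and that of higher ones from 4 to 5 over 15 alternative settings, against 20 and 5. The whole-table count ranged from 5204 to 6226, and no member that passed changed direction. Of the 25 members that passed, 22 did so in all 15. STARD4 lost its call in 10, GGPS1 in 3 and SREBF2 in 1. SC5D passed with the same upper quartile (log2 fold change -0.16, limma adjusted p = 0.025) and with quantile normalization (-0.16, adjusted p = 0.0229). Without compound 11 replicate 2, HSD17B7, MYLIP and NR1H3 passed (adjusted p = 0.0157, 0.0427 and 0.0258), and MYLIP also passed without DMSO replicate 3 (0.0442). With no filter, ABCG1 and CH25H did not pass (adjusted p = 0.422 and 0.62). Leaving out the 20 most abundant genes gave 19 lower and 5 higher members.

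With the replicate number as a block, 6226 genes and the same 20 lower and 5 higher members passed. Deviations from the group means correlated at 0.0794, 0.149 and 0.0663 for equal replicate numbers, and each library correlated best with its own number, a hint from the data and not the design; the samples are taken to share only a number. Without depth, counting error could not be given; MYLIP, NR1H3, ABCG1 and CH25H lay near the floor.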
